A study of Mus musculus with 24 samples.

Results

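Gene expression was compared between PMCA4 knockout cells that received vector B and PMCA4 knockout cells that received vector A. Both are control transfections: vector DNA without the pump was brought by electroporation into primary vascular smooth muscle cells from the carotid artery of male C57bl6 mice that lack PMCA4. The comparison rests on 9 of the 24 bead arrays of the study, 4 with vector B and 5 with vector A. The labels do not say how the vectors differ, nor whether arrays of a group came from separate animals, cultures or electroporations, so the p-values cover no more than the array-to-array spread, and this spread may be technical. All cells of the study were serum synchronized, then given serum with PDGF-BB, a mitogen for smooth muscle, and taken at the late G1/S stage. The other arrays hold wild-type cells (5), knockout cells (5) and knockout cells given PMCA4b, a splice form of the pump (5).

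Vascular smooth muscle cells form the contractile layer of arteries, and in culture with serum they lose contractile proteins and divide. PMCA4 is a plasma membrane pump that exports calcium. Before S phase, E2F factors switch on genes for nucleotide synthesis and DNA replication, and a later wave of mitotic genes is controlled through the cell cycle homology region (CHR) of their promoters. Foreign nucleic acid in a cell can start the interferon response, which switches on genes that carry interferon-stimulated response elements (ISREs) in their promoters.

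The knockout locus was checked first. Atp2b4, which encodes PMCA4, has 3 named probes, of which 1 was detected on the vector arrays. It read 6.69, 6.79, 6.81, 6.40 and 6.69 on the vector A arrays and 6.99, 6.80, 6.63 and 6.45 on the vector B arrays, on the log2 scale of normalized intensity used throughout. The vector groups overlapped, with a difference of 0.04 ± 0.182 (SE; adjusted p = 0.858). The same probe read 6.80 in wild-type and 6.84 in knockout cells, and the sources used here do not say whether it lies in the deleted part, so it does not check the genotype. With the set of columns (below) as a block its difference was -0.50 (adjusted p = 0.0444). Atp2b1, the widely expressed pump of the same family, read 10.09 ± 0.107 (SD, n = 5) for vector A against 9.97 ± 0.0356 (SD, n = 4) for vector B, and it was not called (adjusted p = 0.125). No probe of Atp2b2 or Atp2b3, the pumps best known from nerve and muscle, was detected on the vector arrays.

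Vector B and vector A cells differed at many genes, mostly by small amounts. Of 7675 genes measured, 4097 (53.4%) were called, meaning a limma adjusted p under 0.05. Of these, 2141 (27.9%) were higher and 1956 (25.5%) were lower with vector B. The median size of the difference over all genes was 0.225 on the log2 scale, and 911 genes (11.9%) were called and differed at least 1.5-fold. Differences of at least 2-fold were found for 145 genes higher (1.89%) and 93 genes lower (1.21%) with vector B. The arrays of the vectors did not overlap for 3577 genes (46.6%). For a single gene, 9 arrays split into 4 and 5 in 126 ways, and the smallest two-sided p of an exact permutation test is 0.0159. Arrays of 1 vector correlated at 0.995 to 0.997 across genes, and arrays of different vectors at 0.976 to 0.977.

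The arrays stand in 3 sets of 8 neighbouring columns in the deposited table, and what a set stands for is not given. All vector A arrays are in the third set and all vector B arrays in the first and second sets, so no set holds both vectors and no value within a set can be had. The median raw intensity was 21.8 to 24.3 in the third set and 25.7 to 29.6 in the others. The wild-type, knockout and PMCA4b groups have arrays in each set, but only replicate 5 of each lies in the third set. Any estimate of the set effect therefore rests on few arrays of the third set. Over those 15 arrays, 382 genes were called between the third set and the others, 4 of them at least 2-fold. In a fit with the set as a block, which takes its size from those 15 arrays, 3148 genes (41.0%) were called between the vectors, 21.5% higher and 19.5% lower with vector B. In both fits 2784 genes were called in the same direction, as were 236 of the 238 genes with at least a 2-fold difference. Between 9766 and 10406 probes were detected on each vector array, a probe being detected at a deposited detection p under 0.01.

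The largest increase with vector B was in Tril, a membrane protein that assists Toll-like receptor signalling. It read 5.70, 5.55, 5.80, 5.47 and 5.80 on the vector A arrays and 9.63, 9.91, 9.85 and 9.76 on the vector B arrays. No vector A array detected it and every vector B array did, which makes it at least 10.8-fold higher (limma adjusted p = 6.41e-20). Here and below, "at least" marks a gene undetected on some or all arrays of the dimmer group, whose level there was set to the lowest value among detected probes of the array wherever its own value was lower. Tril was also near the floor in knockout cells, at 5.01, and stood at 8.90 with PMCA4b.

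Plvap, which forms the diaphragms of endothelial fenestrae and caveolae, read 5.88, 5.71, 5.97, 5.63 and 5.65 on the vector A arrays and 9.02, 9.03, 9.19 and 8.92 on the vector B arrays. Egfl7, a secreted angiogenic factor, read 5.58, 6.12, 5.86, 6.19 and 5.60 on the vector A arrays and 8.91, 9.07, 8.89 and 8.93 on the vector B arrays. Neither was detected on a vector A array, so Plvap was at least 6.45-fold and Egfl7 at least 6.06-fold higher with vector B (adjusted p = 2.75e-17 and 2.61e-15). Both are known from endothelium, but the other endothelial markers did not go with them. Of 15 endothelial markers with a probe, 10 were undetected on all 9 arrays, among them Pecam1, Cdh5, Kdr, Tek, Tie1, Vwf and Erg. The summed linear level of the 4 measured endothelial markers was 2682 to 2788 with vector A and 3041 to 3327 with vector B. Notch1, the receptor gene next to Egfl7 on chromosome 2, was undetected on every vector A array and at least 1.69-fold higher.

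Several genes that stood out were high in knockout cells and with vector B but low with vector A. Gpc1, a cell-surface heparan sulfate proteoglycan, read 9.56, 9.58, 9.56, 9.46 and 9.31 on the vector A arrays and 12.32, 12.36, 12.23 and 12.42 on the vector B arrays. It was 7.17-fold higher with vector B (adjusted p = 2.02e-20), and knockout cells read 12.32. Tshz3, a zinc finger transcription factor, read 6.12, 6.17, 6.33, 6.20 and 5.98 on the vector A arrays and 9.10, 9.21, 9.01 and 9.06 on the vector B arrays. It was undetected on every vector A array and at least 6.7-fold higher with vector B (adjusted p = 1.03e-19), against 9.11 in knockout cells. Thbs2, a matricellular inhibitor of angiogenesis, read 7.89 ± 0.115 (SD, n = 5) for vector A against 10.71 ± 0.0335 (SD, n = 4) for vector B, with 11.02 in knockout cells. Epb41l3, a protein that anchors membrane proteins to the actin skeleton, read 8.44 ± 0.0651 (SD, n = 5) for vector A against 11.21 ± 0.107 (SD, n = 4) for vector B, against 12.44 in knockout cells. These 4 genes are among the 12 largest increases, a list that takes only genes whose vector arrays do not overlap.

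Other genes were near the floor in knockout cells and detected with vector B. Wnt4, a secreted Wnt ligand, read 5.64, 5.76, 5.48, 5.54 and 5.72 on the vector A arrays and 8.12, 8.02, 8.18 and 8.20 on the vector B arrays, and was at least 3.43-fold higher. Gdf10, a TGF-beta family member, read 5.15, 5.07, 4.86, 5.29 and 5.06 on the vector A arrays and 7.42, 7.58, 7.59 and 7.57 on the vector B arrays, and was at least 2.27-fold higher. Both were detected on all vector B arrays and on no vector A array. They passed the filter on detection only through vector B, so no p is given for them. Cxcl15, a chemokine, read 8.08, 7.92, 7.66, 7.78 and 8.19 on the vector A arrays and 10.29, 10.24, 10.48 and 10.36 on the vector B arrays and was 5.33-fold higher (adjusted p = 1.23e-14), from 5.55 in knockout cells. In total, 213 genes called higher with vector B were undetected on every vector A array, of which 43 passed the filter only through vector B. This count sets no condition on detection with vector B, so it can include genes undetected with both vectors. The share of all genes undetected on every vector A array is not given beside it.

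The largest decrease was in Dlk1, an imprinted gene for a transmembrane inhibitor of adipocyte differentiation. It read 9.27, 9.36, 9.40, 9.49 and 9.34 on the vector A arrays and 6.16, 6.02, 5.99 and 6.17 on the vector B arrays, which makes it at least 8.47-fold lower with vector B (adjusted p = 9.39e-22). It was detected on every vector A array and on no vector B array, and knockout cells read 7.45. Esm1, a secreted proteoglycan of activated endothelium, read 12.24, 12.31, 12.38, 12.42 and 12.58 on the vector A arrays and 9.58, 10.16, 9.88 and 9.83 on the vector B arrays and was 5.74-fold lower (adjusted p = 2.47e-13). Knockout cells were at 12.05, near vector A. Lmo2, a haematopoietic and endothelial transcription cofactor, read 10.80, 10.77, 10.87, 10.75 and 10.70 on the vector A arrays and 8.47, 8.37, 8.41 and 8.60 on the vector B arrays and was 4.98-fold lower (adjusted p = 1.51e-16), while knockout cells read 5.04.

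Igf1, Inhba, Mfap5 and Pdpn were also among the 12 largest decreases. Igf1, a secreted growth factor, read 12.69, 12.84, 12.76, 12.85 and 12.75 on the vector A arrays and 10.89, 10.84, 10.90 and 10.85 on the vector B arrays and was 3.75-fold lower with vector B (adjusted p = 7.44e-13). It stood above the knockout value of 8.35 with both vectors. Inhba, the activin A subunit, read 12.86 ± 0.0787 (SD, n = 5) for vector A against 11.08 ± 0.0548 (SD, n = 4) for vector B and was 3.44-fold lower. Mfap5, a microfibril protein of elastic fibres, read 10.04 ± 0.0649 (SD, n = 5) for vector A against 7.78 ± 0.035 (SD, n = 4) for vector B and was 4.79-fold lower. Pdpn, podoplanin, a surface glycoprotein of lymphatic vessels and fibroblasts, was undetected on all vector B arrays and at least 2.4-fold lower (adjusted p = 2.88e-12). Gja4, a gap junction connexin, Ch25h, which makes 25-hydroxycholesterol, and Klk8, a secreted serine protease, were lower, at least 3.55-fold, at least 3.29-fold and 3.67-fold. Gja4 and Ch25h passed the filter only through vector A. In total, 94 genes called lower with vector B were undetected on every vector B array, of which 30 passed the filter only through vector A. Here too no condition was set on detection in the brighter group, and the share of all genes is not given.

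**Figure D1:**
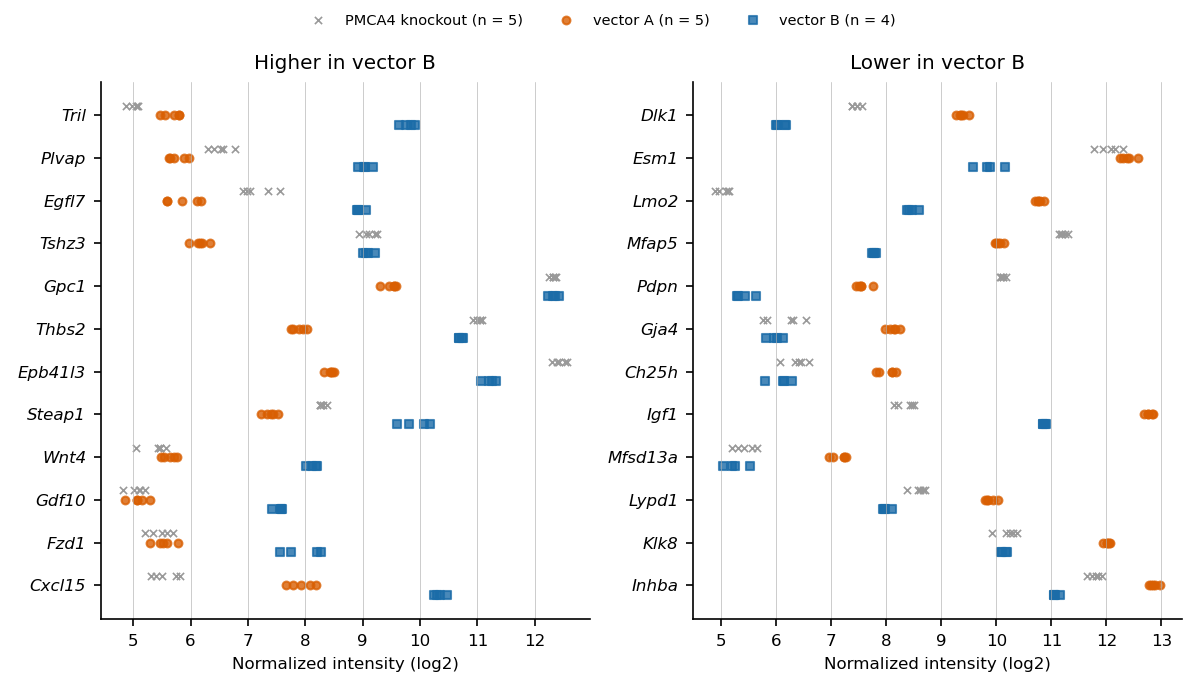
Normalized intensity (log2, horizontal) of the 12 genes with the largest difference in each direction, by the rule for named genes, with 1 point per array for knockout (crosses), vector A (circles) and vector B (squares). The rule takes only genes whose vector A and vector B arrays do not overlap. Gpc1 and Tshz3 with vector B lay at the level of knockout cells.

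Cell division genes were higher with vector B or not called. Of 45 genes of the G1/S and replication list, 38 were higher and none lower, with a median difference of 0.47. Of 34 genes of G2/M and mitosis, 32 were higher and none lower, with a median of 0.48. Over all genes, 27.9% were called higher, with a median difference near 0. With the set as a block, 36 and 30 were higher. Against knockout cells, 40 of the G1/S genes were lower and 2 higher with vector A (median -0.69), and 22 were lower and 9 higher with vector B (median -0.19). Of the mitotic genes, 33 were lower and 0 higher with vector A (median -0.87), and 26 were lower and 2 higher with vector B (median -0.49). For all genes, 35.8% were called lower than knockout with vector A and 30.9% with vector B, while 39.3% and 36.3% were called higher, and both contrasts use the same knockout arrays.

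Among the replication genes, Dbf4, the activating subunit of the CDC7 kinase that fires origins, read 9.04, 8.92, 9.01, 9.01 and 8.97 on the vector A arrays and 10.65, 10.72, 11.01 and 10.88 on the vector B arrays. It was 3.55-fold higher (adjusted p = 9.34e-15), and it lies in the region of chromosome 5 described below. Cdca7, a MYC and E2F target, read 9.81, 9.89, 9.89, 9.87 and 9.81 on the vector A arrays and 10.91, 11.07, 11.08 and 10.89 on the vector B arrays and was 2.19-fold higher (adjusted p = 4.55e-13). Fen1, the flap endonuclease that trims Okazaki fragments, read 10.42 ± 0.0338 (SD, n = 5) for vector A against 11.13 ± 0.02 (SD, n = 4) for vector B, 1.64-fold higher. E2f2, a transcription factor of the G1/S wave, was undetected with vector A and at least 2.08-fold higher. Mybl2 was higher by 0.89 and Mcm10, which starts replication forks, by 0.75. The helicase genes Mcm2, Mcm3, Mcm4, Mcm5, Mcm6 and Mcm7 were higher by 0.38 to 0.64. Pcna, Ccne1, Gins3, Rfc1, Prim2, Cdc7 and Rfc4 were not called, with differences of -0.02, -0.14, -0.18, 0.10, 0.14, 0.17 and 0.21.

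Among the mitotic genes, Cdc20, which activates the anaphase-promoting complex, read 10.43, 10.38, 10.46, 10.51 and 10.42 on the vector A arrays and 11.49, 11.40, 11.42 and 11.46 on the vector B arrays. It was 2.01-fold higher with vector B (adjusted p = 2.94e-13), below the knockout level of 12.38 with both. Kif11, the spindle kinesin Eg5, read 8.16, 8.32, 8.47, 8.24 and 8.17 on the vector A arrays and 8.94, 8.85, 8.91 and 8.98 on the vector B arrays, with a difference of 0.65 ± 0.0552 (SE; adjusted p = 1.29e-09). Kif22, a chromosome-arm kinesin, read 10.48 ± 0.0406 (SD, n = 5) for vector A against 11.13 ± 0.0347 (SD, n = 4) for vector B. Both kinesins were clearly separated between the vectors. Incenp was higher by 0.78, Top2a, the topoisomerase of chromosome separation, by 0.75, and Cdk1 by 0.36, while Cdca5, at -0.13, was not called. The cell cycle inhibitors did not move together. Cdkn2b, p15, was 2.51-fold lower (adjusted p = 7.2e-15) and Cdkn1a, p21, 1.41-fold higher (adjusted p = 4.5e-07). Of 23 such genes and p53 targets, 10 were higher and 7 lower (10 and 4 with the set as a block). Over all genes, 27.9% were higher and 25.5% lower.

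Promoters of the genes that carry these results are shown with the motif letters in capitals, on the strand of the gene, 300 bases around the start, from RefSeq (GRCm38.p6). Cdca7 is shown for an E2F-type match (TTTCCCGC or TTTGGCGC), and Cdc20 and Kif11 for a CHR-type match (TTTGAA). Ifit3 and Irgm1 are shown for an ISRE-type match (GAAANNGAAA) and are described with the interferon genes.

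Cdca7 (chr2:72475969-72476268, + strand): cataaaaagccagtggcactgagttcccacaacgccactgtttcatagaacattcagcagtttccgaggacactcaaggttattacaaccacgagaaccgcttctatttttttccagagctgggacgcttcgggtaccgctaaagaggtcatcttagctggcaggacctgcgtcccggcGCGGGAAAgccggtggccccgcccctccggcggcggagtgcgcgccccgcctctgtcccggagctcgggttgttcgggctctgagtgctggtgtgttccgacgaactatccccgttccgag

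Cdc20 (chr4:118437294-118437593, - strand): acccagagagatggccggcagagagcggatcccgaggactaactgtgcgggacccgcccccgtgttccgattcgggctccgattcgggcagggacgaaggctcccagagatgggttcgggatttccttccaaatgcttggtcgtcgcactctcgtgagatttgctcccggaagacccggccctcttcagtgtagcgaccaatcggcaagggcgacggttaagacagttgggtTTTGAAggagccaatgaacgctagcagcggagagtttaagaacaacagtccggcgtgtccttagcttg

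Kif11 (chr19:37376132-37376431, + strand): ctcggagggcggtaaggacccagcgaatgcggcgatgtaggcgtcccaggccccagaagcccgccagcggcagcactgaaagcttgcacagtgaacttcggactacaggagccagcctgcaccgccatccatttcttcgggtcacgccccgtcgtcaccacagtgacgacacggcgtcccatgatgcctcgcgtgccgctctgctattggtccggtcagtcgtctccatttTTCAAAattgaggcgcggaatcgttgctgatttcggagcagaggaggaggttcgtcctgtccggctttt

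Ifit3 (chr19:34583279-34583578, + strand): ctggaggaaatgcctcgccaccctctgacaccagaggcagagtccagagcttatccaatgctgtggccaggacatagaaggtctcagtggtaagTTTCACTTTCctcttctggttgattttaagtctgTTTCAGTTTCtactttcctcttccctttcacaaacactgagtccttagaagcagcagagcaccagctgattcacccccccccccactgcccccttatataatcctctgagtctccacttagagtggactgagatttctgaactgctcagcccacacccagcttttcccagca

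Irgm1 (chr11:48871371-48871670, - strand): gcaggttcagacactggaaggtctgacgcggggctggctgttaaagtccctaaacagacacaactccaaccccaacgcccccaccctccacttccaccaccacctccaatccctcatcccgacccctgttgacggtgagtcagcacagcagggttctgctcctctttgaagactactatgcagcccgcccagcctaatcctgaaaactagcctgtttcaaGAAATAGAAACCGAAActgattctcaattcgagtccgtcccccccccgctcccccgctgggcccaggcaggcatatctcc

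Both strands were searched, so a match may appear as its reverse complement, as in Cdca7 (GCGGGAAA) and Ifit3. In Irgm1 a pair of matches overlaps in 1 run of capitals. An E2F-type match was found in 11 of 39 promoters of the G1/S list (28.2%), against 1.63% of 27025 promoters in the table and 3.08% of 6299 promoters of measured genes. The CHR-type match was found in 21 of 27 promoters of the G2/M list (77.8%), against 18.1% of all promoters and 11.7% of those of measured genes. The ISRE-type match was found in 13 of 20 promoters of the interferon list (65.0%), against 3.49% and 2.89%. These counts take every measured list member with a promoter, whatever its call. They describe the lists and not the difference between the vectors. Measured genes outside these lists were also counted by motif. Of 182 with an E2F-type match, 33.0% were called higher and 19.8% lower, against 27.4% and 25.6% of all 6299. Of 708 with a CHR-type match, 29.8% were higher and 23% lower. Of 167 with an ISRE-type match, 26.3% were higher and 25.7% lower. Outside the lists, the shares for the CHR-type and ISRE-type motifs lay near those of all measured genes.

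Interferon response genes were lower with vector B. Of 25 measured, 17 were lower and 3 higher, with a median difference of -0.50, against 25.5% of all genes lower. Ifit3, which restrains viral RNA, read 11.48, 11.56, 11.39, 11.32 and 11.38 on the vector A arrays and 9.72, 9.63, 9.85 and 9.61 on the vector B arrays. It was 3.3-fold lower with vector B (adjusted p = 3.16e-13), and both vectors were above the knockout level of 9.23. Irgm1, an immunity-related GTPase, read 13.29, 13.10, 13.18, 12.96 and 13.25 on the vector A arrays and 12.16, 12.42, 12.40 and 12.33 on the vector B arrays and was 1.77-fold lower (adjusted p = 3.93e-08). Here vector A lay near knockout cells, at 13.24, and vector B below them. Oasl2 was at least 1.64-fold, Usp18 at least 1.66-fold and Stat2 at least 1.48-fold lower, and Parp14 was lower with a log2 difference of -0.82. Isg15, at -0.33 and detected on 3 of the 4 vector B arrays, was not called. Ifitm3, an entry-restriction protein, went the other way, from 13.53, 13.46, 13.50, 13.46 and 13.46 on the vector A arrays to 14.07, 14.06, 14.07 and 14.06 on the vector B arrays, 1.49-fold higher (adjusted p = 1.13e-08). Irf1 and Irf2 were higher by 0.19 and 0.34. With the set as a block 16 genes were lower and 2 higher. Against knockout, 19 of the 25 were higher and 2 lower with vector A (median 0.45). With vector B, 12 were higher and 7 lower than knockout (median 0.28). Over all genes, 39.3% were higher and 35.8% lower than knockout with vector A, and 36.3% and 30.9% with vector B.

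Antigen presentation genes included 4 lower and 1 higher of 11, beside 25.5% of all genes lower and 27.9% higher. Tap2, a peptide transporter of the class I pathway, was 1.63-fold lower, from 10.42, 10.43, 10.33, 10.39 and 10.45 to 9.72, 9.78, 9.81 and 9.50 (adjusted p = 1.06e-07). B2m, the class I light chain, was 1.28-fold lower. Chemokine, cytokine and NF-kB genes leaned the other way, with 17 of 32 higher and 7 lower and a median of 0.26. Il33, an alarmin cytokine, read 6.70, 6.77, 6.88, 6.57 and 6.66 on the vector A arrays and 9.06, 8.89, 8.84 and 8.76 on the vector B arrays and was 4.51-fold higher with vector B (adjusted p = 3.41e-13). Cxcl1, a neutrophil chemokine and the neighbour of Cxcl15, was higher by 1.31 and Ccl7 by 0.73. Tnfrsf11b, osteoprotegerin, was 2.28-fold lower, with 14.20 ± 0.042 (SD, n = 5) for vector A against 13.01 ± 0.0306 (SD, n = 4) for vector B, far above the knockout level of 9.51 with both vectors. The inhibitor Nfkbia and the subunits Nfkb2 and Relb were higher by 0.32, 0.47 and 0.53. Of 8 complement genes, 4 were higher and 2 lower (3 and 1 with the set as a block). The inhibitor Serping1 read 6.90 ± 0.164 (SD, n = 5) for vector A against 8.11 ± 0.142 (SD, n = 4) for vector B and was 2.31-fold higher.

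Genes of the lysosome and autophagy were lower with vector B or not called. Of 38 measured, 21 were lower and none higher, with a median of -0.23, against 25.5% of all genes lower and 27.9% higher. With the set as a block, 13 were lower. Hexa, a subunit of beta-hexosaminidase, read 10.85, 11.08, 11.08, 11.03 and 10.92 on the vector A arrays and 10.27, 10.20, 10.33 and 10.33 on the vector B arrays and was 1.63-fold lower (adjusted p = 2e-08). Gaa, which degrades glycogen, was 1.4-fold lower and Becn1, an autophagy initiator, 1.52-fold lower (adjusted p = 1.88e-06 and 2.05e-06). Ctsl, a cathepsin, was at least 1.5-fold lower, and Map1lc3b and Npc2 were lower with log2 differences of -0.51 and -0.33, while Lamp2, at -0.03, was not called. Against knockout, 29 genes of the list were higher and 4 lower with vector A (median 0.51), and 21 were higher and 9 lower with vector B (median 0.27), where 39.3% and 36.3% of all genes were higher.

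Of 31 genes of fatty acid oxidation and lipid storage, 17 were lower and 4 higher (15 and 3 with the set as a block). The median was -0.27, and 25.5% were lower and 27.9% higher over all genes. Pparg, the transcription factor of adipocyte genes, read 11.02 ± 0.0756 (SD, n = 5) for vector A against 10.35 ± 0.0526 (SD, n = 4) for vector B and was 1.59-fold lower (adjusted p = 4.84e-07). Plin4, a lipid droplet protein, was 1.44-fold lower, Fabp3, a fatty acid binding protein, was lower with a log2 difference of -0.94, and Echs1, an enzyme of beta-oxidation, was 1.35-fold lower (adjusted p = 1.92e-07). Lpl, lipoprotein lipase, was higher, from 11.24, 11.27, 11.16, 11.13 and 11.16 to 12.40, 12.30, 12.46 and 12.37 (adjusted p = 4.31e-09). Pparg, Lpl and Plin4 were above knockout cells, at 8.35, 7.67 and 8.03, with both vectors. The defining adipocyte genes Adipoq, Fabp4, Plin1, Lep and Cidec were undetected on all 9 arrays. Cholesterol and fatty acid synthesis genes were split, with 8 of 29 higher and 9 lower (6 and 6 with the set as a block). Cyp51, lanosterol demethylase, was 3.36-fold higher and lies in the region of chromosome 5 below, Srebf2, the master regulator of cholesterol synthesis, was 1.61-fold higher, and Sc5d was 2.24-fold lower.

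**Figure D2:**
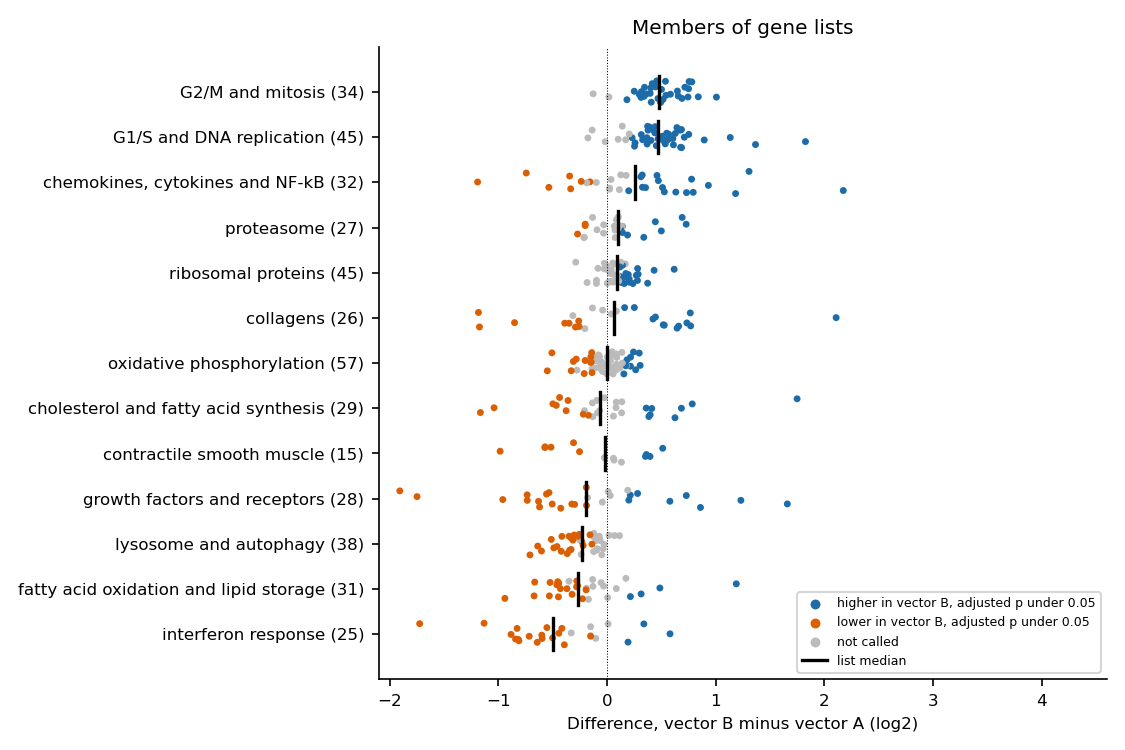
Difference of vector B minus vector A (log2, horizontal) for each measured member of 13 gene lists, with the number measured in brackets, coloured by call, and a bar at the list median. The division lists lie at medians of 0.47 and 0.48 and the interferon list at -0.50.

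Of 28 growth factor genes and receptors, 15 were lower and 8 higher (12 and 6 with the set as a block), with a median of -0.19. The share of all genes was 25.5% lower and 27.9% higher, and 8 of 28 lies near the latter. Igfbp3, an IGF binding protein, was lower, with a log2 difference of -1.75. Vegfc, a lymphangiogenic factor, was undetected with vector A and at least 1.35-fold higher with vector B. Nrg1, a ligand of ERBB receptors, read 8.46, 8.53, 8.43, 8.43 and 8.36 on the vector A arrays and 9.70, 9.64, 9.65 and 9.71 on the vector B arrays and was 2.35-fold higher (adjusted p = 1.07e-12). Pdgfrb, a receptor for the PDGF-BB used to stimulate the cells, was 1.34-fold lower (adjusted p = 0.00518), but with the set as a block its difference was 0.0171 (adjusted p = 0.903). Of 28 TGF-beta and BMP family genes, 13 were lower and 8 higher, but 7 and 7 with the set as a block (block median -0.03). Of 22 Wnt and Notch genes, 8 were higher and 7 lower. Dkk3, a secreted modulator of Wnt signalling, was 2.91-fold lower and Ccn5, a matricellular inhibitor of smooth muscle growth, 3.07-fold higher. Rgs16, an inhibitor of G protein signalling, was 2.58-fold lower, with 8.42 ± 0.107 (SD, n = 5) for vector A against 7.05 ± 0.186 (SD, n = 4) for vector B, below the knockout level of 10.72 with both vectors.

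Calcium genes showed no common direction, with 4 of 17 transport genes higher and 4 lower (5 and 6 with the set as a block). The counts of 4 lie near the shares of all genes, 27.9% higher and 25.5% lower. Cacna2d1, a calcium channel subunit, read 10.09, 10.10, 9.97, 10.15 and 10.07 on the vector A arrays and 11.89, 11.68, 11.63 and 11.73 on the vector B arrays and was 3.15-fold higher (adjusted p = 5.49e-15). It lies at the start of chromosome 5. Atp2a3, a pump of the endoplasmic reticulum, was 1.59-fold lower. Among genes of calcineurin and calmodulin signalling, 7 of 22 were higher and 7 lower. Rcan2, a calcineurin inhibitor, read 9.61, 9.71, 9.66, 9.63 and 9.74 on the vector A arrays and 8.06, 7.71, 7.90 and 7.98 on the vector B arrays and was 3.38-fold lower (adjusted p = 5.98e-13), and Nfatc1, a transcription factor that calcineurin activates, was 1.5-fold higher. Of the immediate early genes, 9 of 25 were lower and 7 higher (5 and 6 with the set as a block). Fos, Myc and Egr1, at -0.16, -0.13 and -0.01, were not called, Dusp4 was 1.6-fold higher and Maff 1.93-fold lower.

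Matrix genes were called in both directions, beside 27.9% of all genes higher and 25.5% lower. Of 26 collagens and collagen enzymes, 12 were higher and 8 lower. Col18a1, the precursor of endostatin, read 6.85, 6.86, 6.78, 6.82 and 6.80 on the vector A arrays and 8.84, 8.96, 9.04 and 8.88 on the vector B arrays and was 4.31-fold higher (adjusted p = 1e-17), and Col6a1 was 1.58-fold higher. Col1a1, Col1a2 and Col3a1, the fibrillar collagens, were higher by 0.53, 0.45 and 0.77. Loxl1, a cross-linking enzyme, was 2.27-fold lower and P4ha1, a prolyl hydroxylase, 2.25-fold lower. Of proteoglycans, elastic fibre and matricellular genes, 11 of 29 were higher and 7 lower, the latter near the share of all genes. Of matrix proteases and inhibitors, 9 of 24 were lower and 6 higher (6 and 3 with the set as a block). The 6 of 24 higher also lie near the share of all genes. Plau, urokinase, was 1.82-fold higher and Mmp16 2.11-fold lower.

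The labelled cell type was checked with 26 contractile smooth muscle markers that have a probe. On all 9 vector arrays 10 were detected, among them Acta2, and on none 13, among them Tagln, Myh11, Cnn1, Des and Myocd. Among the 15 measured, 4 were higher, near the share of all genes, and 6 lower, with a median of -0.02. With the set as a block, 4 were higher and 3 lower. Their differences ran from -0.98 to 0.51 on the log2 scale. Acta2, at -0.02, was not called, Csrp1 was 1.43-fold higher and Tpm1 1.28-fold higher, while Tpm2 had a log2 difference of -0.31. Of 19 fibroblast and adventitia markers, 11 were detected on all 9 arrays. Among the 13 measured, 4 were higher and 6 lower, beside 27.9% and 25.5% of all genes. Dpt, dermatopontin, was 2.67-fold lower, and Dcn, decorin, was 1.4-fold higher. The summed linear level of the 13 was 36225 to 38125 with vector A and 35441 to 36998 with vector B. Of the leukocyte markers 11 of 14 were undetected on all 9 arrays, of the chondrocyte and bone markers 11 of 13, of the epithelial markers 8 of 15, of the pericyte markers 6 of 9, of the skeletal and cardiac muscle markers 18 of 19 and of the Schwann and neural crest markers 6 of 6. Their part in the differences between the vectors was not tested, and fewer cells of a type and less RNA per cell cannot be told apart in such samples. Hox and related position genes were lower in 7 and higher in 2 of 11, against 25.5% of all genes lower, but in 4 and 1 with the set as a block (block median -0.19), with Hoxa5 1.29-fold lower (adjusted p = 4.57e-06).

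Housekeeping, metabolic and stress groups had median differences between -0.12 (heat shock) and 0.10 (proteasome), though many of their members were called. Over all genes, 27.9% were higher and 25.5% lower. Ribosomal protein genes had a median of 0.10, with 19 of 45 higher and none lower. With median scaling 10 were higher, and 11 with the replicate number as a block. Rpl34 and Rps27, on chromosome 3, were 1.53-fold and 1.3-fold higher, and Rpl30, on chromosome 15, 1.35-fold higher. Proteasome genes had 9 of 27 higher and 3 lower (4 and 1 with the set as a block), led by Psma5 and Psmb4 on chromosome 3 (1.66-fold and 1.62-fold higher). Oxidative phosphorylation genes had 10 of 57 higher and 12 lower (9 and 5 with the set as a block), with a median near 0. Antioxidant and glutathione genes had 17 of 42 lower and 11 higher, with Gsta1 2.15-fold higher and Gstt1 2.23-fold lower. Heat shock protein genes had 9 of 21 lower and 3 higher, but 5 and 6 with the set as a block, with Hspb1 1.76-fold lower. Of 27 glycolysis and hypoxia genes, 9 were lower and 5 higher, and of 32 endoplasmic reticulum stress and serine synthesis genes, 13 were higher and 8 lower (11 and 5 with the set as a block), with Phgdh, the first enzyme of serine synthesis and a gene of chromosome 3, 1.66-fold higher.

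The difference between the vectors depended on chromosome, a pattern looked for after the values were seen. Of 371 measured genes on chromosome 3, 258 were called higher (69.5%) and 27 lower (7.28%), with a median difference of 0.39. Of 328 genes on chromosome 15, 169 were higher (51.5%) and 38 lower (11.6%), with a median of 0.24. The medians of the other 18 chromosomes lay between -0.12 (chromosome 9, with 40.2% of genes lower) and 0.13 (chromosome 4, with 42.4% higher). With the set as a block the medians of chromosomes 3 and 15 were 0.38 and 0.24. No test was made of a pattern found in this way, DNA copy number was not measured, and the cause was not tested.

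Each array showed the chromosome pattern. On chromosome 3 the median over genes of the level minus the mean of knockout cells was -0.65 to -0.60 on the vector A arrays and -0.22 to -0.19 on the vector B arrays. On chromosome 15 it was -0.07 to -0.03 on the vector A arrays and 0.15 to 0.18 on the vector B arrays. So chromosome 3 was below knockout cells with both vectors and lowest with vector A. On chromosome 15 vector B lay above knockout cells and vector A slightly below. Cells given PMCA4b lay near vector B on both chromosomes. Their median difference from knockout was -0.20 on chromosome 3 and 0.16 on chromosome 15, beside -0.21 and 0.17 with vector B and -0.63 and -0.04 with vector A. Without chromosomes 3 and 15 and the first 30 measured genes of chromosome 5, 6939 genes were left, of which 24.4% were higher and 27.1% lower. The division and interferon counts were nearly the same among them, with 37 of 44 G1/S genes and 30 of 32 mitotic genes higher and 17 of 23 interferon genes lower. Of the cholesterol synthesis genes left there, 2 of 23 were higher and 9 lower.

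**Figure D3:**
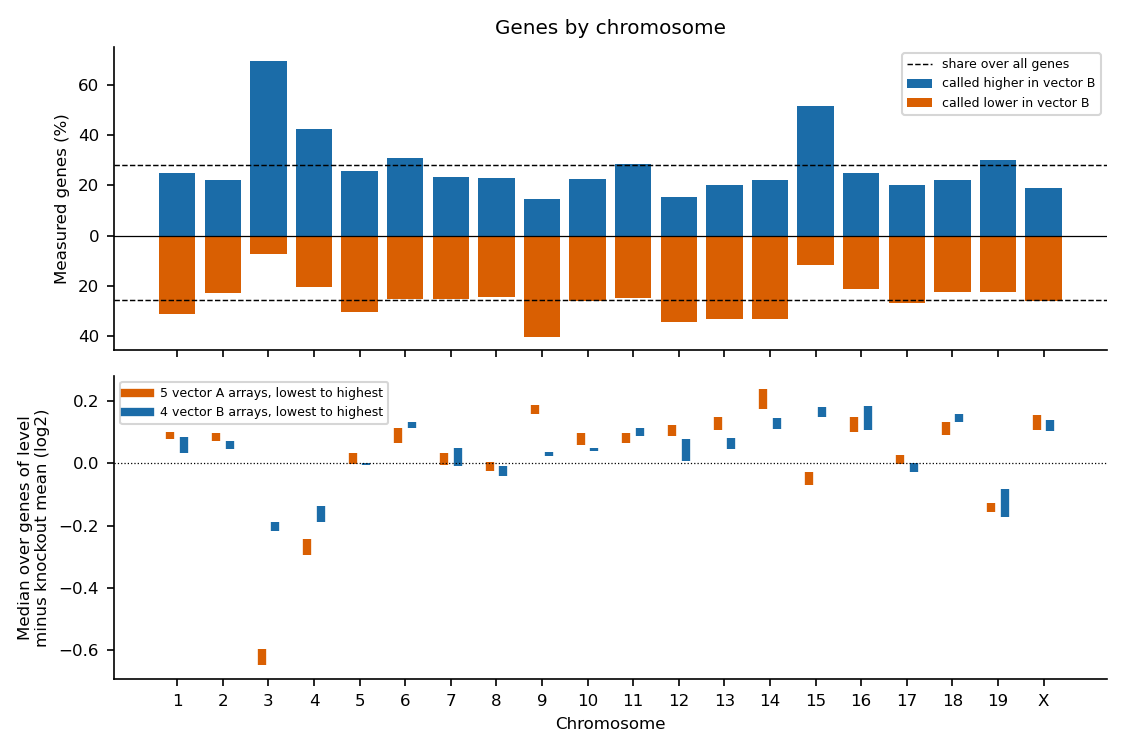
Top, share of measured genes on each chromosome called higher (up) or lower (down) with vector B, in percent, with the share over all genes as dashed lines. Bottom, range over arrays of the chromosome's median level minus the knockout mean (log2), for 5 vector A and 4 vector B arrays. Chromosome 3, at 69.5% higher, and chromosome 15, at 51.5%, stand out.

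Along the chromosomes the difference was spread widely on chromosome 3. In windows of 15 measured genes, the median was beyond 1.3-fold at 218 window centres in 13 runs on chromosome 3, at 29 centres on chromosome 15, at 37 on chromosome 4, at 11 on chromosome 5 and at 9 on chromosome 9. The longest run on chromosome 3 held 74 centres, from S100a10 to Ppm1j. Chromosome 4 had runs in both directions. Window medians were lower at centres around Plpp3, Mrpl37 and Cpt2, and higher at centres from Gja4 to Txlna and from Med18 to Ppp1r8. A gene at a centre need not follow its window. Gja4 and Txlna themselves were lower, at -2.14 and -0.27, and Mrpl37 was at 0.08. The run on chromosome 5 was at its start.

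**Figure D4:**
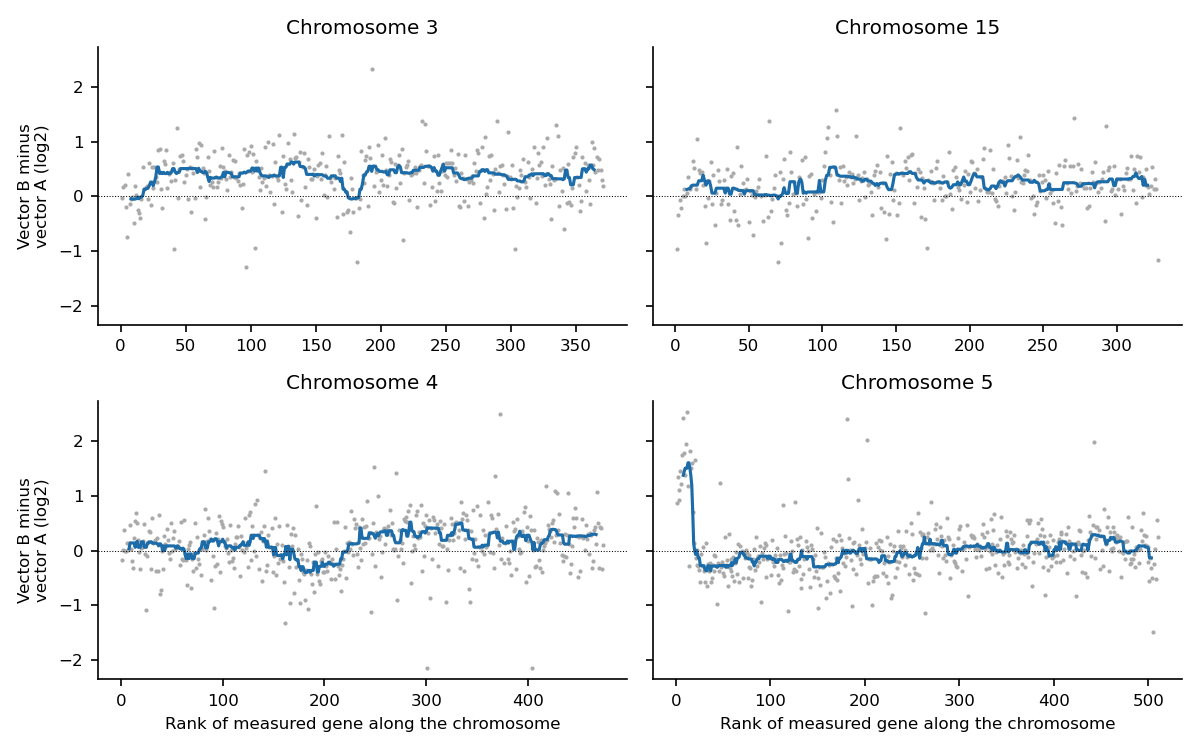
Difference of vector B minus vector A (log2, vertical) of each measured gene on chromosomes 3, 15, 4 and 5 in gene order (points), with the median of 15 neighbouring measured genes (line). Along chromosome 3 the line runs from -0.05 to 0.63. It lies above 0 over most of the chromosome but near 0 at its start and from S100a14 to Lce1f. The line is above 1 only at the start of chromosome 5.

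At the start of chromosome 5, 17 of the first 18 measured genes, from Cdk6 to Dmtf1, were called higher with vector B, and the exception, Adam22, was detected on 1 vector A array and on no vector B array. The median over the first 20 measured genes was 1.41. Steap1, a metalloreductase, read 7.43, 7.53, 7.34, 7.23 and 7.40 on the vector A arrays and 9.60, 9.81, 10.07 and 10.17 on the vector B arrays and was 5.77-fold higher (adjusted p = 3.07e-15). Its neighbour Steap2 was higher by 1.95, Cdk14 by 1.78 and Abcb1b, a multidrug efflux pump, by 1.51. Fzd1, a Wnt receptor, read 5.51, 5.28, 5.46, 5.59 and 5.77 on the vector A arrays and 7.76, 8.21, 8.27 and 7.56 on the vector B arrays. It was undetected on every vector A array and at least 3.03-fold higher. Fzd1, which is among the 17 genes called, passed the filter on detection only through vector B, so no p is given for it. Cyp51, Dbf4 and Cacna2d1, named with their pathways above, also lie here. Cdk6, the G1 kinase, read 5.53 ± 0.11 (SD, n = 5) for vector A, where no array detected it, against 6.40 ± 0.157 (SD, n = 4) for vector B, at least 1.03-fold higher. Sema3a, at 0.14, was not called, and from Phtf2 to Fastk no gene was called higher. Against knockout, the differences of Rbm48, Cdk14, Sri and Dbf4 were 1.63, 1.52, 1.32 and 1.12 with vector B, 0.29, -0.26, 0.13 and -0.71 with vector A, and 2.15, 1.75, 1.75 and 1.96 with PMCA4b. Over the first 20 measured genes, the mean with vector B was above that with vector A at 19, the mean with PMCA4b was above vector A at 18 and above vector B at 15. Abcb4, a phospholipid transporter, went another way, since it was detected on every array of both vectors and on no knockout or PMCA4b array.

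**Figure D5:**
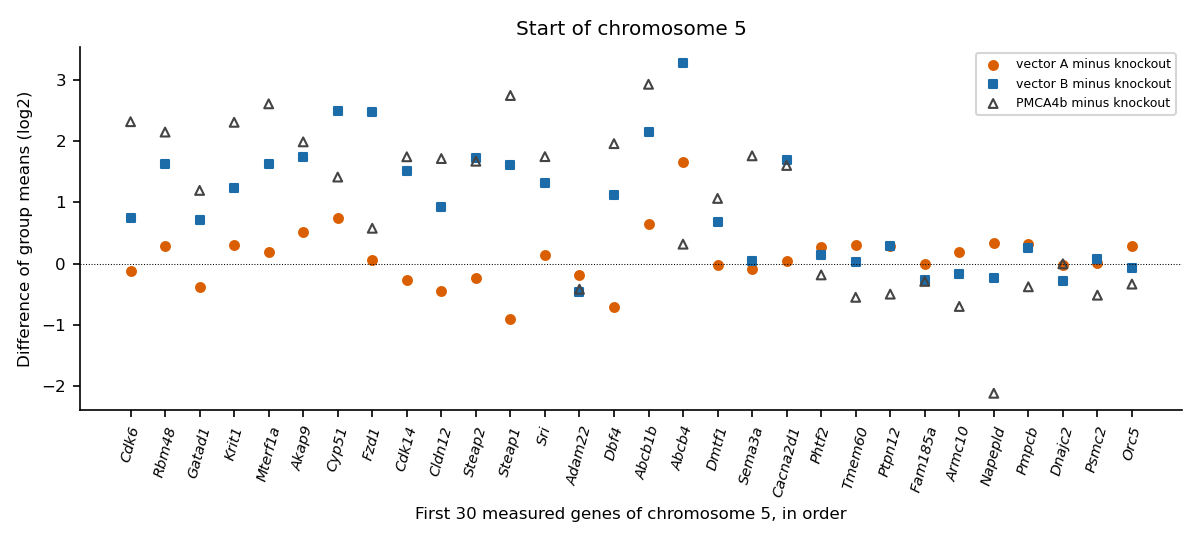
Difference of group means from knockout cells (log2, vertical) for the first 30 measured genes of chromosome 5 in order, for vector A (circles), vector B (squares) and PMCA4b (triangles). Vector B lies above vector A from Cdk6 to Dmtf1 except at Adam22, and after Cacna2d1 no gene plotted was called higher with vector B.

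Each vector was also set beside knockout cells that the labels do not describe as electroporated. Of all genes, 5761 (75.1%) were called for vector A against knockout and 5156 (67.2%) for vector B against knockout. These contrasts share the knockout arrays. Over all genes, 8.09% were called and at least 2-fold higher and 7.07% lower than knockout with vector A, and 6.62% and 4.82% with vector B. Among the 145 genes at least 2-fold higher with vector B than with vector A, 61 were at least 2-fold lower and 22 at least 2-fold higher than knockout with vector A. With vector B, 66 of them were at least 2-fold higher and 16 at least 2-fold lower than knockout. Among the 93 genes at least 2-fold lower with vector B, 63 were at least 2-fold higher and 6 at least 2-fold lower than knockout with vector A. With vector B, 24 of them were higher and 21 lower than knockout by that measure. The 145 and the 93 genes were picked by the difference between these same vector arrays, so such splits are in part built in. The shares over all genes are therefore no background for them. Gpc1 (vector A -2.83 and vector B 0.01 from knockout) lay below knockout cells with vector A, and Klk8 (1.81 and -0.07) above them with vector A. Tril and Cxcl15 were undetected on every knockout array, so no difference from knockout is given for them.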

How the data were processed

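Total RNA of 24 samples was hybridised to Illumina bead arrays (PicoPure extraction and biotinylated cRNA, per the labels' protocols). A deposited table gives each probe's bead intensity on each array, already background-subtracted and not normalized between arrays, with a deposited detection p-value. A second deposited table holds the authors' log2 values, used as an alternative. Not given in the sources used here are the scanner software, genome build and normalization steps. No column of the tables used was left without a sample.

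Intensities were corrected with limma 3.58.1 in R 4.3.3 as in neqc (normexp from the detection p-values, offset 16, quantile normalization). A probe was kept if its detection p was under 0.01 on 4 or more arrays (11139, of which 10504 had 1 gene in the platform annotation), and the brightest named probe stood for a gene (7675 genes). Of 2039 genes with several kept probes, 28 had called probes in opposite directions. A fit of 5 group means over all 24 arrays (19 residual degrees of freedom) gave the contrasts. P-values are two-sided and Benjamini-Hochberg adjusted over all genes, and every adjusted p in the report comes from limma. Replicate numbers did not pair the samples: deviations of same-numbered vector arrays correlated at -0.0181 to 0.0113. No pair of arrays held identical values. Precision is limited by the number of arrays.

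Named genes were the 12 largest called differences in each direction without overlap, the called genes of lowest adjusted p in each list (at most 3), and Atp2b1 to Atp2b4. Other list members and genes of chromosome 5 were named after their values were seen. The comparison, lists and rule were chosen with earlier results of these data known, so lists are described by counts and medians, without a test. Chromosomes and gene order came from a RefSeq table (GRCm38.p6).

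The fit was tested on simulated data for vector B against vector A, with 7675 genes and 200 changed. At 2-fold, 98 of 100 changed genes were recovered and at 1.5-fold 87 of 100, so a first requirement of 90% at both sizes was missed at 1.5-fold and recovery was then only required at 2-fold. All recovered genes had the right sign, and 8 of 7475 unchanged genes were called. The simulated noise was independent between genes and held no effect of the column set. The count of false calls therefore does not carry over to the real arrays. Alternatives covered the column set, the replicate number, background, offset, scaling, probe filter, probe choice, the authors' values, a test against 1.5-fold, and leaving out each vector array. Tables and figures used data.table (1.17.8), Python 3.11.15, pandas 2.3.3 and matplotlib 3.10.9.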

Additional observations from a re-analysis of the deposited data

Results flagged for a closer look

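Of 242 combinations of a named gene and a vector group, 6 held 1 array far from the rest by Dixon's test, where chance flags about 1 in 20. Gdf10 was lowest on vector B replicate 1 (7.42), Serping1 lowest on vector B replicate 3 (7.90), and Krt14 lowest on vector B replicate 2 (5.03), a gene undetected on all 9 vector arrays. P4ha1 was highest on vector B replicate 1 (7.32). Atp2b4 was lowest on vector A replicate 4 (6.40), and Cdkn1a lowest on vector A replicate 1 (11.6). Among probes that carry no gene name, which the gene counts leave out, 308 of 635 (48.5%) were called between the vectors, 150 higher and 158 lower with vector B.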

How the results depend on the processing

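Vector and column set cannot be separated within a set. With the set of columns as a block, the lysosome list had 13 genes lower in place of 21, lists with most members called in 1 direction were 4 in place of 8, the fibroblast list's median turned from -0.13 to 0.12, Pdgfrb turned to 0.0171, and the chromosome 3 and 15 medians were 0.377 and 0.235. The replicate numbers do not pair the samples, and with the replicate block 4006 genes were called, ribosomal genes higher were 11 in place of 19, and the chromosome 15 median was 0.231. Against a 1.5-fold threshold, 317 genes were called (191 higher and 126 lower), 1696 for vector A and 1225 for vector B against knockout, and the lists kept 4 G1/S, 1 G2/M, 0 ribosomal, 2 interferon and 0 lysosome genes, with 0 such lists, so most called differences are not shown to exceed 1.5-fold.

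The chromosome 3 median was 0.403 without further background correction, 0.343 with offset 50, 0.365 in the authors' log2 values, 0.428 for probes detected on all arrays of a vector group, 0.0934 without a filter and 0.363 with the mean of probes. The chromosome 15 median was 0.213 with offset 50, 0.231 with median scaling, 0.223 in the authors' values and 0.0722 without a filter, and the start of chromosome 5 was at 1.32 with offset 50, 1.32 in the authors' values and 1.48 for probes detected on all arrays of a vector group. Median scaling left 10 ribosomal genes higher. Without a filter, which adds undetected probes, 2 such lists were left, and the medians of collagens and of laminins and integrins turned to -0.0232 and -0.0032. Leaving out 1 vector array gave 3757 to 3901 genes called (1973 to 2058 higher and 1773 to 1847 lower), 3752 to 3910 without overlap, 5601 to 5754 and 4953 to 5142 against knockout for vectors A and B, and 6 to 8 such lists. It gave 36 to 39 G1/S, 30 to 32 G2/M, 15 to 17 ribosomal, 16 to 18 interferon and 17 to 21 lysosome genes, and medians of 0.385 to 0.401, 0.230 to 0.248 and 1.40 to 1.43 for chromosomes 3 and 15 and the start of chromosome 5. Of 121 named genes, 119 were called, and 55 kept call and direction under all 23 settings.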

Other observations

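Neighbouring measured genes that both differed at least 2-fold in the same direction occurred outside chromosomes 3, 15 and 5 as well, and were picked out after their values were seen. In the histone cluster of chromosome 13, H3c3, H2bc3, H2ac4 and H3c1, which encode core histones, were higher with vector B, at least 1.87-fold, at least 1.21-fold, at least 2.04-fold and 2.52-fold, where "at least" marks genes undetected on some or all vector A arrays. Tmem176b and Tmem176a, membrane proteins encoded side by side on chromosome 6, were higher by 1.63 and 1.92 on the log2 scale. Anxa8 and Npy4r, which follow Gdf10 on chromosome 14, were higher, Anxa8 by 1.18 and Npy4r at least 1.69-fold. Gstt3 and Gstt1, glutathione transferases on chromosome 10, were lower, with differences of -1.09 and -1.16, as were Ang2 and Rnase2a, ribonucleases on chromosome 14, at -1.30 and -1.14, and Rcan2 and Enpp5 on chromosome 17, at -1.76 and -1.26.

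Across 7675 genes, which are not independent replicates, the difference between the vectors correlated at r = -0.14 (Spearman -0.17) with knockout minus wild type and at r = 0.21 (Spearman 0.21) with PMCA4b minus knockout. Neither contrast shares an array with the vector contrast. No column set holds arrays of both vectors, so vector and set cannot be told apart, and no p is given.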
